A study of Mus musculus with 11 samples.

Results

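Of 9 genes that supply deoxynucleotides, remove uracil from DNA or work at the replication clamp (Rrm1, Rrm2, Tyms, Tk1, Dut, Ung, Pcna, Fen1 and Lig1), the uracil-DNA glycosylase gene Ung and the ribonucleotide reductase subunit gene Rrm1 had higher liver RNA signals in Akt1 transgenic mice than in wild-type mice fed the same high-fat diet. The genes were chosen by name, as every probe set whose platform annotation gave 1 of these 9 symbols alone. That choice was made with earlier results of these data known. This gave 16 probe sets, for 9 of the 12393 genes with a probe set of their own on the array. Liver RNA came from 11 male mice of mixed background, 1 array per mouse. Mice labelled Akt1 double transgenic (DTG) on a high-fat diet (n = 4, called transgenic mice here) carried muscle hypertrophy per the labels. Wild-type mice on the same high-fat diet (n = 4) and wild-type mice on a control diet, titled normal diet (n = 3), had none. All 3 groups, the wild-type ones included, were given doxycycline for 3 weeks. The promoter that drives the transgenes, the age of the mice and whether any were littermates are not given in the sources used here, and no transgenic mice on the normal diet were analysed here, so genotype was compared on the high-fat diet alone. By its title the study asked how this diet and muscle growth driven by Akt1, a growth-signalling kinase, affect gene expression in the liver.

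Cells make DNA building blocks by reducing ribonucleotides, a step carried out by ribonucleotide reductase, whose large subunit is encoded by Rrm1 and whose S-phase small subunit is encoded by Rrm2. Thymidylate synthase (Tyms) and thymidine kinase 1 (Tk1) supply thymidine nucleotides, and dUTPase (Dut) breaks down dUTP so that uracil is kept out of DNA. Uracil that does enter DNA is cut out by the glycosylase Ung. The sliding clamp Pcna holds polymerases on DNA, the flap endonuclease Fen1 trims displaced strands and DNA ligase 1 (Lig1) seals the nicks, both in replication and in the long-patch form of base excision repair. Most hepatocytes of an adult liver are not dividing, and many of these genes are best known for their rise in S phase.

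The upstream regions of 4 of these genes are shown because Rrm1 and Ung passed the test, Pcna lay higher in every transgenic array, and Rrm2 encodes the partner subunit of Rrm1. RefSeq promoter windows (GRCm38.p6) matched 9 of the 9 genes by symbol. Each sequence holds the 250 bases before an annotated start site, written 5′ to 3′ on the gene's strand. The regions are chr7:102441445-102441694 (plus strand) for Rrm1, chr12:24708004-24708253 (plus) for Rrm2, chr5:114130185-114130434 (plus) for Ung and chr2:132253181-132253430 (minus) for Pcna. Capitals mark matches on either strand to CCAAT or to an E2F-type core, spelled TTCCCGC in its plain form and searched also as the forms TTCGCGC and, with other middle letters, TTGCCGC as well as the related TTGGCGC, and no 2 marked matches overlap.
Rrm1: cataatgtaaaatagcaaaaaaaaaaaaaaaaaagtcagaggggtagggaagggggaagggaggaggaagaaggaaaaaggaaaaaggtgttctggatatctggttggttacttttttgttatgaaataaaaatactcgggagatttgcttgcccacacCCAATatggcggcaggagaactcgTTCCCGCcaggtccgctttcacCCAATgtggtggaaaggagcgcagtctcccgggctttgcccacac
Rrm2: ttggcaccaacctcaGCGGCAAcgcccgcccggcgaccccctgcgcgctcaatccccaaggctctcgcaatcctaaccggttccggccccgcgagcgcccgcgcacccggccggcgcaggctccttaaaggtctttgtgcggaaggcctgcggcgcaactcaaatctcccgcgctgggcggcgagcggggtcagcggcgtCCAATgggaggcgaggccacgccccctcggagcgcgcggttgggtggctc
Ung: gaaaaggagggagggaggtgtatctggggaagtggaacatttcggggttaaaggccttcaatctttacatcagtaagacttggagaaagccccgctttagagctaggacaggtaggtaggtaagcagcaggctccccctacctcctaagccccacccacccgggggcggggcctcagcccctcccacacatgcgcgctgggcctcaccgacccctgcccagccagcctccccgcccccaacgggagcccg
Pcna: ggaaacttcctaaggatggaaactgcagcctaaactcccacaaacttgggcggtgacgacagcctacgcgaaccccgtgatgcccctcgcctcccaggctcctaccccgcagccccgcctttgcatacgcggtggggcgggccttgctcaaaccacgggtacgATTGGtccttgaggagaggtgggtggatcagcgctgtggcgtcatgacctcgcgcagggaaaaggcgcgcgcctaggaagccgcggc
The Rrm1 region held 1 E2F-type match, 67 bases before the start site, and CCAAT at 91 and 45 bases. The Rrm2 region held 1 E2F-type match at 235 bases and CCAAT at 50 bases, the Pcna region had CCAAT at 87 bases, and the Ung region had neither. Over the 9 genes and their 12 windows, 3 genes (Rrm1, Rrm2 and Fen1) had an E2F-type match and 3 (Rrm1, Rrm2 and Pcna) had CCAAT. Of 27025 genes with such windows, 9.01% had an E2F-type match and 37.5% had CCAAT. These matches describe letters in the windows and are not evidence of binding.

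Each array gave 22690 probe sets as a linear MAS5 signal with a trimmed mean near 500, and no 2 arrays were identical (Spearman correlations of 0.935 to 0.956 between arrays). Transgenic arrays 3 and 4 stood apart by top signals of 42426 and 43273, against 27780 to 35450 in the other 9. They also had the lowest mean Spearman correlations with other arrays, 0.940 and 0.943, against 0.948 to 0.951. The signal ratio of 3′ to 5′ Gapdh control probe sets was 0.823 in transgenic array 3, above the 0.669 to 0.768 of the other 9. In transgenic array 4 it was 0.737, within that range. The brighter Akt1 probe set in liver was 0.080 ± 0.13 (log2, limma SE) higher in transgenic livers than in wild-type high-fat ones, with a limma adjusted p of 0.830. Albumin (Alb), a defining hepatocyte product, had signals of 22086.8, 21781.5, 30531.8 and 31650.6 in transgenic, 21382.2 to 24255.5 in wild-type high-fat and 20218.5 to 22190.6 in normal-diet livers. Transgenic arrays 1 and 2 thus lay within the wild-type high-fat range, and arrays 3 and 4 above it. In whole tissue, more cells of a type and more RNA per cell cannot be told apart.

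With diet held the same, transgenic livers had higher Ung and Rrm1, and 2 of the 8 genes that could be tested passed in limma's fit across 7924 genes, both higher. In that fit 0.366% of genes passed in either direction and 0.227% passed as higher. Tested genes were those with a probe set above the lowest 40% of mean signals, and each was read from its brightest probe set. Tyms was the gene left out, and the other 8 had mean signals above that limit in each of the 3 groups. Their median log2 difference was 0.33, against 0.0010 over all genes tested, and 6 of 8 lay above 0 where 50.2% of all genes did. Without adjustment, 4 of 8 were higher at p under 0.05 (Rrm1, Ung, Pcna and Lig1), against 6.95% of all genes, and 0 were lower, against 6.74%. In 3 of 8 (Rrm1, Ung and Pcna) every transgenic array lay above every wild-type high-fat array, against 4.32% of all genes, and 0 lay wholly below, against 4.09%. Because the genes were chosen with earlier results of these data known, these shares describe them and do not test them as a set.

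**Figure D1:**
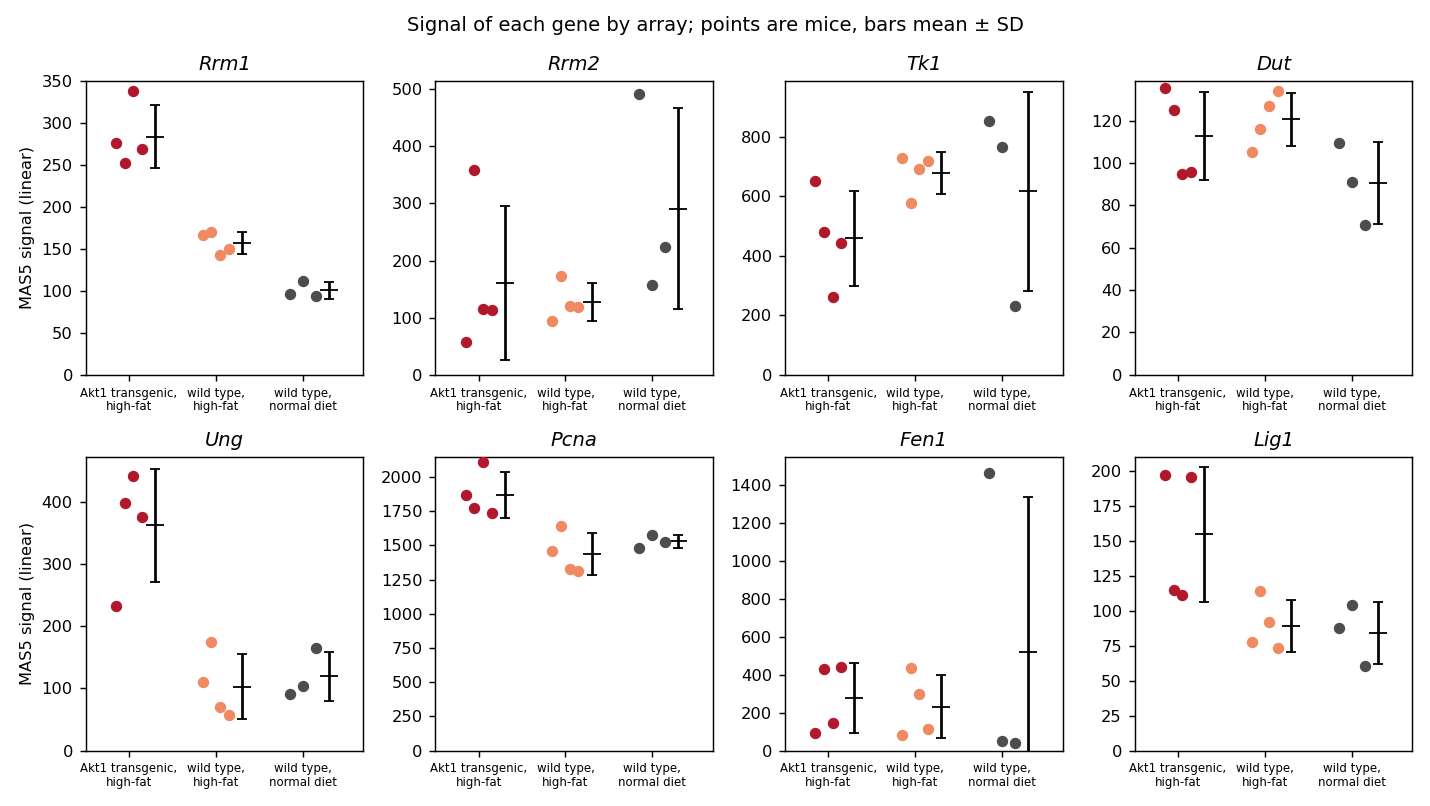
Linear MAS5 signal (vertical axis, a separate scale per gene) of the brightest probe set of 8 genes, with a point per mouse and bars for mean ± SD, in transgenic high-fat (n = 4), wild-type high-fat (n = 4) and wild-type normal-diet mice (n = 3). The 4 transgenic arrays lie above every other array for Rrm1, Ung and Pcna. Single arrays stand out in some groups: transgenic array 2 and normal-diet array 1 for Rrm2, normal-diet array 3 for Tk1 and normal-diet array 1 for Fen1. The other Fen1 groups are spread widely without a single array apart. For Fen1 on the normal diet the SD bar runs below 0 and is cut there.

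Ribonucleotide reductase was measured through both subunits. Rrm1, the large subunit that holds the catalytic and regulatory sites, had signals of 276.3, 252.6, 338.0 and 268.8 in transgenic livers, against 166.7, 170.4, 143.0 and 150.1 in wild-type high-fat livers and 95.9, 111.9 and 94.2 in normal-diet livers. The 3 groups did not overlap, with transgenic arrays at the top and normal-diet arrays at the bottom. Group means were 284 ± 37.4 (SD, n = 4), 158 ± 13.1 (SD, n = 4) and 101 ± 9.77 (SD, n = 3). The second Rrm1 probe set had the same order without overlap, at 162.0 to 200.1 in transgenic, 87.1 to 138.2 in wild-type high-fat and 63.3 to 82.2 in normal-diet livers, and the probe sets had r = 0.960 with each other over the 11 arrays.

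Rrm1 rose 1.80-fold in transgenic against wild-type high-fat livers, a log2 difference of 0.84 ± 0.14 (limma SE, adjusted p = 0.0398), and its p ranked 14 of 7924. Between high-fat and normal diet in wild-type mice the log2 difference was 0.65 ± 0.15, with a limma adjusted p of 0.375. Rrm1 rose 2.81-fold in transgenic over normal-diet livers (1.49 ± 0.15, limma adjusted p = 0.00118), and its p ranked 3 of 7924. These 3 comparisons share arrays in pairs. In a limma fit of all 22626 probe sets the brighter Rrm1 probe set had an adjusted p of 0.0623 for transgenic over wild-type high-fat livers, so the call was not kept there. At the dimmer probe set, in the same fit, the differences were 0.70 ± 0.21 (adjusted p = 0.235), 0.61 ± 0.23 (0.756) and 1.30 ± 0.23 (0.0193) in the same order. In that fit 0.141% of probe sets passed for transgenic over wild-type high-fat livers and 0.968% for transgenic over normal-diet livers.

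Rrm2, the small subunit that carries the radical needed for each reaction cycle, passed the test in no comparison. At the brightest of its 3 probe sets transgenic livers had 57.7, 358.6, 115.0 and 113.4, against 95.0, 173.6, 121.0 and 118.3 in wild-type high-fat livers and 490.8, 157.6 and 224.3 in normal-diet livers. Transgenic array 2 and normal-diet array 1 were the highest arrays at each of the 3 probe sets, and transgenic and wild-type high-fat arrays overlapped. The probe sets varied together, with r of 0.844 to 0.939 over the 11 arrays. For transgenic over wild-type high-fat livers the 3 probe sets gave different sizes. The brightest was at 0.048 ± 0.49 (log2, limma adjusted p = 0.977), with a 95% interval of -1.01 to 1.11 that holds differences as large as that of Rrm1. In the fit of all probe sets the other 2 were at 0.94 ± 0.49 and 0.40 ± 0.42 (limma adjusted p = 0.518 and 0.782), above 0 as Rrm1 was. For transgenic over normal-diet livers Rrm2 lay below 0, where Rrm1 was at 1.49. The brightest probe set was at -1.01 ± 0.53 (limma adjusted p = 0.331). The other 2 were at -0.44 ± 0.53 and -0.88 ± 0.45 in the fit of all probe sets (limma adjusted p = 0.782 and 0.425). A difference between Rrm1 and Rrm2 was not tested.

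On the high-fat diet Rrm2 had lower values in wild-type livers than on the normal diet, at -1.06 ± 0.53 for the brightest probe set (limma adjusted p = 0.742). The other 2 were at -1.39 ± 0.53 and -1.27 ± 0.45 in the fit of all probe sets (limma adjusted p = 0.775 and 0.716), and in both every high-fat array lay below every normal-diet array, against 3.2% of all probe sets. One of these 2 had 58.5, 58.3, 56.1 and 61.4 in wild-type high-fat livers and 271.0, 91.7 and 114.3 in normal-diet livers. The high-fat arrays thus lay within a narrow range, and the normal-diet arrays were spread widely above them. For diet, Rrm1 and Rrm2 therefore had values of opposite sign, and the contrast between the genes was not tested.

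**Figure D2:**
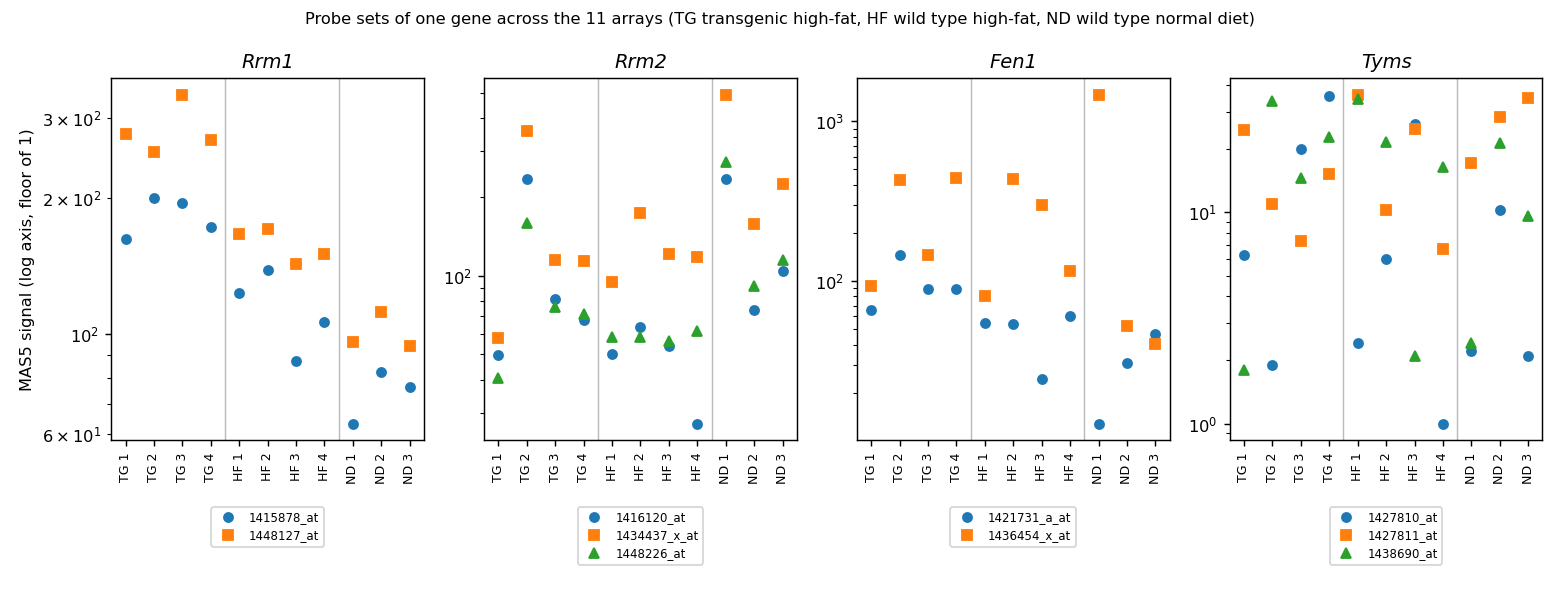
MAS5 signal on a log axis for each probe set of Rrm1, Rrm2, Fen1 and Tyms in the 11 arrays (TG transgenic high-fat, HF wild type high-fat, ND wild type normal diet). Both Rrm1 probe sets step down from TG to HF to ND, and the 3 Rrm2 probe sets peak together in TG 2 and ND 1. The 2 Fen1 probe sets do not vary together (r = -0.201), with ND 1 the highest array at 1 and the lowest at the other. The 3 Tyms probe sets reach a signal of 36.0 at most.

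None of the genes of thymidine and dUTP metabolism passed the test in any comparison. Tk1, which phosphorylates salvaged thymidine, had 650.2, 481.6, 261.7 and 442.9 in transgenic, 729.9, 576.6, 691.5 and 719.9 in wild-type high-fat and 851.8, 763.9 and 232.4 in normal-diet livers. Transgenic array 3 and normal-diet array 3 were the low ones, and the groups overlapped. The log2 difference was -0.63 ± 0.37 for transgenic over wild-type high-fat livers (limma adjusted p = 0.483, 95% interval -1.44 to 0.17). For diet in wild-type mice Tk1 was at 0.34 ± 0.40 (limma adjusted p = 0.919).

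Dut, the enzyme that hydrolyses dUTP, had 135.4, 125.0, 94.6 and 95.9 in transgenic, 105.1, 116.1, 126.9 and 134.0 in wild-type high-fat and 109.4, 91.1 and 70.7 in normal-diet livers. The ranges of transgenic and wild-type high-fat livers overlapped almost fully, and transgenic arrays 3 and 4 were the lower ones of their group. The log2 difference was -0.11 ± 0.20 (limma adjusted p = 0.853, 95% interval -0.55 to 0.33), and for diet in wild-type mice it was 0.43 ± 0.22 (limma adjusted p = 0.760). The dimmer Dut probe set, below the limit on mean signal, had -0.27 ± 0.52 and 1.26 ± 0.56 for the same comparisons (limma adjusted p = 0.896 and 0.814 over all probe sets).

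Tyms, which makes thymidylate from dUMP, was measured by 3 probe sets that all lay below the limit, with signals of 1.8 to 35.6 in transgenic, 0.9 to 36.0 in wild-type high-fat and 2.1 to 34.9 in normal-diet livers. Their values did not vary together (r of -0.256 to 0.046), so these probe sets gave no usable level. A further probe set, which the annotation assigns to both Tyms and its pseudogene Tyms-ps, was not counted among the 16. It had 260.3, 234.2, 165.2 and 205.7 in transgenic, 195.7, 202.2, 135.3 and 118.5 in wild-type high-fat and 126.8, 156.7 and 157.0 in normal-diet livers. The transgenic and wild-type high-fat ranges overlapped, and the log2 difference was 0.43 ± 0.22 (limma adjusted p = 0.504 over all probe sets). Over normal-diet livers the log2 difference was 0.55 ± 0.24 (limma adjusted p = 0.336 over all probe sets). There every transgenic array lay above every normal-diet array, against 7.46% of all probe sets.

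Ung, the glycosylase that removes uracil from DNA as the opening step of base excision repair, had the largest fold difference of the 8 tested genes between transgenic and wild-type high-fat livers. Its signals were 233.1, 397.9, 442.3 and 376.1 in transgenic, 110.1, 174.6, 70.3 and 57.5 in wild-type high-fat and 90.4, 103.7 and 164.4 in normal-diet livers. Every transgenic array lay above every wild-type array of either diet, with transgenic array 1 the lowest of its group, and the wild-type groups overlapped. Means were 362 ± 90.5 (SD, n = 4), 103 ± 52.7 (SD, n = 4) and 119.5 ± 39.4 (SD, n = 3). Ung rose 3.75-fold over wild-type high-fat livers (log2 1.91 ± 0.34, limma adjusted p = 0.0461) and 3.05-fold over normal-diet livers (1.61 ± 0.37, limma adjusted p = 0.0461). For diet in wild-type mice it was at -0.30 ± 0.37 (limma adjusted p = 0.925, 95% interval -1.10 to 0.50). Only 1 probe set measured Ung, so the value has no second reading on the array. In the fit of all probe sets its limma adjusted p was 0.0506 over wild-type high-fat livers and 0.0618 over normal-diet livers, so neither call was kept there.

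The calls for Ung and Rrm1 against wild-type high-fat livers lay close to the threshold and were lost under several settings and without several single arrays. Their limma adjusted p was 0.0541 for Ung and 0.0673 for Rrm1 without the filter on dim probe sets, 0.0819 and 0.0686 without the intensity trend, and 0.0709 and 0.0601 with only these 2 groups in the fit. With each array left out in turn, the log2 difference ranged from 1.67 to 2.21 for Ung and from 0.76 to 0.90 for Rrm1. Both still passed when normal-diet array 3, transgenic array 1 or array 2 of the wild-type high-fat group was left out. Leaving out arrays 1, 3 and 4 of the wild-type high-fat group gave Ung a limma adjusted p of 0.134, 0.114 and 0.106, and it was 0.0587 and 0.0643 without normal-diet arrays 1 and 2, and 0.0964, 0.110 and 0.148 without transgenic arrays 2, 3 and 4. For Rrm1 the same omissions gave a limma adjusted p of 0.121, 0.109 and 0.106, and it was 0.0528 and 0.0510 without normal-diet arrays 1 and 2, and 0.0759, 0.102 and 0.116 without transgenic arrays 2, 3 and 4. Without transgenic arrays 3 and 4 together, Ung was at 1.70 (limma adjusted p = 0.296) and Rrm1 at 0.75 (0.259). The rise of Rrm1 over normal-diet livers passed in each of these fits, at 1.40 to 1.57 with 1 array left out and 1.40 (limma adjusted p = 0.0196) without transgenic arrays 3 and 4. The rise of Ung over normal-diet livers passed without transgenic array 1 or array 2 or 4 of the wild-type high-fat group, and omitting arrays 1 and 3 of that group gave limma adjusted p of 0.0673 and 0.0581. It had 0.125, 0.147 and 0.0581 without normal-diet arrays 1, 2 and 3, and 0.0893, 0.102 and 0.115 without transgenic arrays 2, 3 and 4.

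Pcna, the replication clamp, had higher values in transgenic livers by a small and regular margin that did not pass. Signals were 1866.2, 1771.3, 2107.1 and 1736.9 in transgenic, 1457.9, 1641.7, 1329.1 and 1312.9 in wild-type high-fat and 1483.2, 1575.5 and 1527.8 in normal-diet livers. Every transgenic array lay above every wild-type array, and the wild-type groups overlapped. The difference was 1.30-fold over wild-type high-fat livers (log2 0.38 ± 0.100, limma adjusted p = 0.119, 95% interval 0.17 to 0.60) and 0.29 ± 0.11 over normal-diet livers (limma adjusted p = 0.185). For diet it was -0.096 ± 0.11 (limma adjusted p = 0.913). The spread of Pcna between mice was small, with a coefficient of variation of 8.93% in transgenic, 10.6% in wild-type high-fat and 3.02% in normal-diet livers, against 25.0%, 51.1% and 33.0% for Ung.

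Lig1, the ligase that joins Okazaki fragments, had 197.5, 114.6, 111.6 and 195.9 in transgenic, 77.7, 114.4, 92.0 and 73.2 in wild-type high-fat and 87.9, 104.0 and 60.2 in normal-diet livers. Transgenic arrays 1 and 4 were high, and arrays 2 and 3 lay close to the highest wild-type high-fat array. The log2 difference was 0.76 ± 0.27 over wild-type high-fat livers (limma adjusted p = 0.237) and 0.86 ± 0.29 over normal-diet livers (limma adjusted p = 0.148), and it was 0.10 ± 0.29 for diet (limma adjusted p = 0.964). None of these passed.

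The 2 Fen1 probe sets did not vary together over the 11 arrays (r = -0.201), though both had log2 differences above 0 in all 3 comparisons. Its brighter probe set, of a type that can share probes with related sequences (suffix x), had 92.5, 428.6, 145.2 and 442.2 in transgenic, 80.3, 435.8, 298.9 and 115.0 in wild-type high-fat and 1462.2, 52.6 and 40.3 in normal-diet livers. Normal-diet array 1 held the highest value by far, and the groups overlapped. The dimmer probe set, just under the limit on mean signal (50.9 against a limit of 53.0), had 65.9, 145.6, 89.2 and 88.6 in transgenic, 54.6, 53.6, 24.2 and 60.2 in wild-type high-fat and 12.8, 30.6 and 46.9 in normal-diet livers, where array 1 was the lowest. There every transgenic array lay above every wild-type array, against 4.03% of all probe sets for the comparison with wild-type high-fat livers and 7.46% for that with normal-diet livers. Its log2 difference was 1.04 ± 0.46 over wild-type high-fat livers (limma adjusted p = 0.437) and 1.82 ± 0.50 over normal-diet livers (0.121), while the brighter one had 0.27 ± 1.01 (limma adjusted p = 0.935) over wild-type high-fat livers in the fit of genes. Without normal-diet array 1 the diet difference at the brighter probe set was 2.02, against 0.35 with it, and neither passed.

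**Figure D3:**
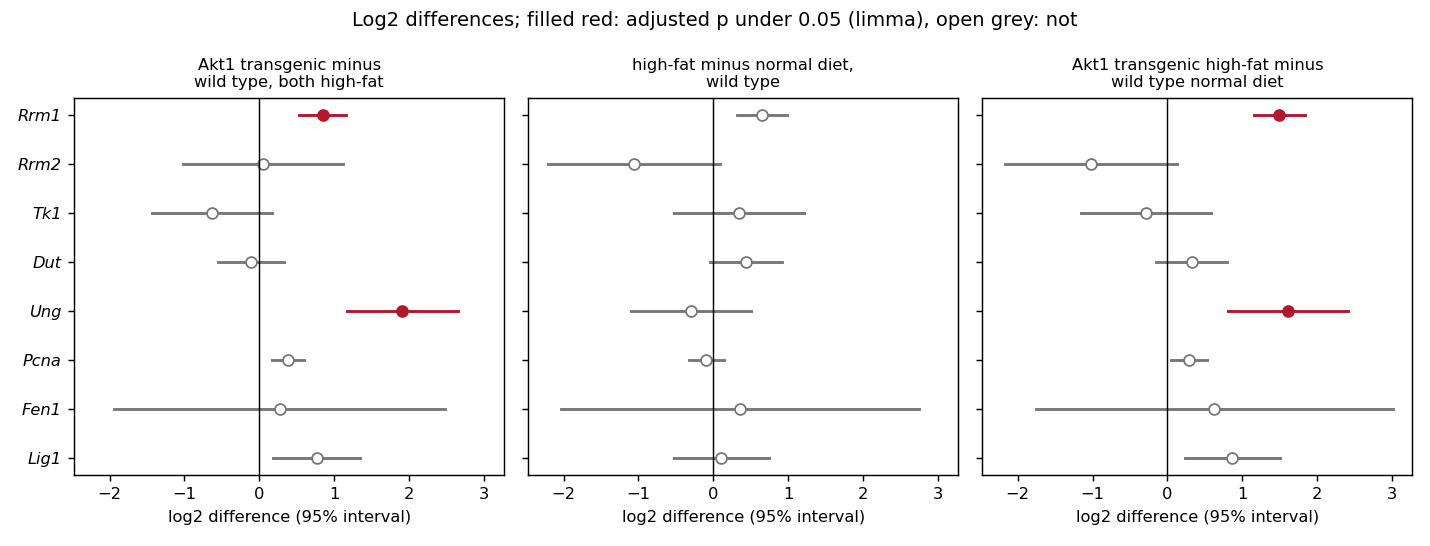
Log2 differences (horizontal axis) with 95% intervals from limma's fit for 8 genes in 3 comparisons, filled red where the adjusted p was under 0.05. Rrm1 (0.84 and 1.49) and Ung (1.91 and 1.61) pass in both comparisons of transgenic livers, none passes for diet, and the intervals of Fen1 and Rrm2 are the widest.

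The high-fat diet alone was tested in wild-type mice, and none of the 8 genes passed, as none of the 7924 did (0% called). At an unadjusted limma p under 0.05, 556 genes (7.02%) were counted, and 1 of the 8, Rrm1, was higher, where 3.92% of all genes were higher, and 0 were lower, against 3.09%. Rrm1 was also the 1 gene of 8 whose high-fat arrays all lay above those of the normal diet, against 4.58% of all genes. The median of the 8 was 0.22, against 0.0067 over all genes, and 5 of 8 lay above 0, where 51.1% of all genes did. Transgenic mice on the high-fat diet differed from wild-type mice on the normal diet by genotype and diet together, and there 2 of the 8 passed, both higher, where 2.08% of all genes passed in either direction and 1.4% as higher. The median was 0.47, against 0.0041 over all genes, and 6 of 8 lay above 0, where 50.6% of all genes did. At an unadjusted limma p under 0.05, 4 of 8 were higher, against 9.96% of all genes. The same number, 4 of 8 (Rrm1, Ung, Pcna and Lig1), had no overlap of arrays, against 8.46% of all genes. These shares too describe genes chosen with earlier results known and are no test of the set.

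Other genes of these pathways were described from 4 lists, and listed genes without a tested probe set of their own were not analysed here. The lists were chosen with earlier results of these data known, so their counts are descriptions and no test of a list. Of 21 tested replication fork genes, such as clamp loader, primase and polymerase subunits, 0 passed between transgenic and wild-type high-fat livers, where 0.366% of all genes passed. Their median log2 difference was 0.38 (0.0010 over all genes), 17 of 21 lay above 0 (50.2% of all genes), and at an unadjusted limma p under 0.05 there were 6 higher (6.95% of all genes) and 0 lower (6.74%). Against normal-diet livers 3 of the 21 rose, where 1.4% of all genes did: Prim1, the catalytic subunit of primase (1.54 ± 0.31, limma adjusted p = 0.0305), Rpa2, a subunit of the single-strand binding complex (1.10 ± 0.18, 0.0120), and Rfc2, a clamp loader subunit (0.77 ± 0.18, 0.0477). Prim1 had 229.6, 210.4, 317.8 and 240.4 in transgenic, 150.5, 162.0, 73.7 and 65.7 in wild-type high-fat and 89.9, 84.6 and 79.5 in normal-diet livers. Transgenic arrays did not overlap with the others, and wild-type high-fat arrays 1 and 2 lay above arrays 3 and 4. Rpa2 had 169.1, 163.6, 169.0 and 179.1 in transgenic, 98.3, 106.4, 111.9 and 119.8 in wild-type high-fat and 77.5, 95.0 and 68.0 in normal-diet livers, so its 3 groups did not overlap, in the same order as Rrm1. Of the 21 genes, 4 had transgenic arrays wholly above wild-type high-fat ones, against 4.32% of all genes. Against normal-diet arrays 8 did, where 8.46% of all genes did. Over wild-type high-fat livers Prim1 was at 1.24 ± 0.29 (limma adjusted p = 0.0963) and Rpa2 at 0.64 ± 0.16 (0.112), and for diet the list had a median of 0.14.

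Of 13 other dNTP supply genes, 0 passed in any comparison, and their medians were -0.029 for transgenic over wild-type high-fat livers, 0.099 for diet and 0.19 for transgenic over normal-diet livers. Over all genes tested, 0.366%, 0% and 2.08% passed in these comparisons, with medians of 0.0010, 0.0067 and 0.0041. At such shares, 0 calls in a list of 8 to 19 genes do not show that its genes were unchanged. The smallest p values in the comparison of transgenic with wild-type high-fat livers were those of Tk2, the mitochondrial thymidine kinase (-0.49 ± 0.14, limma adjusted p = 0.151), Samhd1, which degrades dNTPs (0.40 ± 0.13, 0.210), and Dck, a salvage kinase (0.50 ± 0.24, 0.381). Tk2 had 306.8, 262.7, 256.9 and 231.7 in transgenic and 380.3, 352.9, 325.6 and 424.8 in wild-type high-fat livers, without overlap, where 4.09% of all genes lay wholly lower. Samhd1 lay wholly higher, as did 4.32% of all genes. Of 19 purine and pyrimidine synthesis genes 0 passed in any comparison, with medians of 0.036, 0.12 and 0.17 in the same order, and the leading values over wild-type high-fat livers were those of Umps (0.47 ± 0.14), Ctps2 (0.65 ± 0.21) and Impdh1 (0.62 ± 0.24), with limma adjusted p of 0.177, 0.201 and 0.268. Of 8 tested base excision repair genes other than those above, 0 passed, with medians of -0.074, 0.00074 and -0.047. Lig3, the ligase of short-patch repair, was at 0.33 ± 0.15 over wild-type high-fat livers, Parp1 at -0.18 ± 0.11 and the scaffold gene Xrcc1 at -0.29 ± 0.21, with limma adjusted p of 0.376, 0.520 and 0.572.

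**Figure D4:**
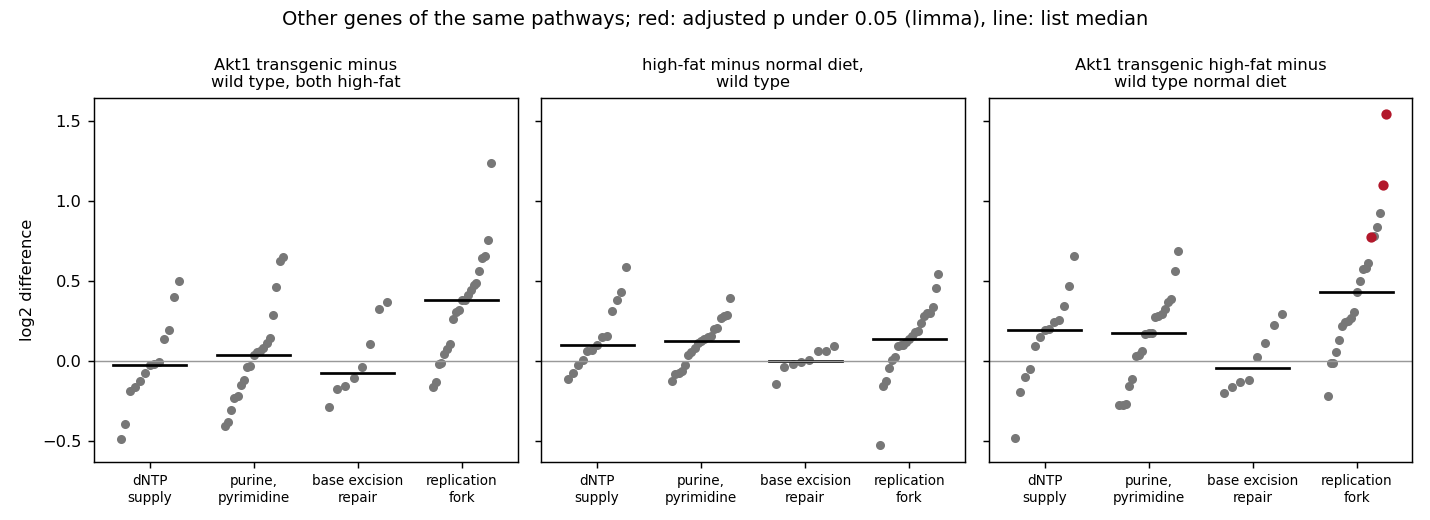
Log2 differences (vertical axis) of the tested genes of 4 pathway lists in 3 comparisons, a point per gene, red where limma's adjusted p was under 0.05 and a line at each list's median. The replication fork list has its medians at 0.38, 0.14 and 0.43, with Prim1, Rpa2 and Rfc2 in red in the right panel.

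Markers of other cells were set beside these values. Of 14 proliferation markers on the array (such as Mki67, Top2a and Cdk1) 1, Cdc20, was above the limit on mean signal. Their summed signal was 438.6 to 663.6 in transgenic, 245.9 to 413.0 in wild-type high-fat and 314.8 to 380.3 in normal-diet livers, so the transgenic arrays lay above the others. This sum came mostly from probe sets below the limit, so it gave no firm level, and the difference was not tested. Cdc20, an activator of the anaphase-promoting complex, had 67.4, 97.8, 74.7 and 96.0 in transgenic, 42.8, 58.5, 33.4 and 52.0 in wild-type high-fat and 33.4, 74.0 and 72.0 in normal-diet livers. The transgenic arrays lay above all wild-type high-fat arrays, as for 4.32% of all genes, and overlapped with the normal diet. The log2 difference of Cdc20 over wild-type high-fat livers was 0.86 ± 0.32 (limma adjusted p = 0.260). Mki67, a marker of cycling cells, was dim, at 1.5 to 33.6 in transgenic, 1.3 to 21.7 in wild-type high-fat and 2.7 to 32.6 in normal-diet livers. Of 10 neutrophil markers 2 were above the limit, and the sum was 544.4 to 1999.4 in transgenic, 295.3 to 417.7 in wild-type high-fat and 271.8 to 314.7 in normal-diet livers, with the protease gene Prtn3 giving 202.6 to 1417.8 of it in transgenic livers. Prtn3 had 6.1 to 43.9 in wild-type high-fat and 7.0 to 34.6 in normal-diet livers, all under the limit of 53.0, so no fold is given. S100a8 and S100a9, below the limit on mean signal, also lay higher in every transgenic array than in every wild-type array. Of all probe sets 4.03% lay so against wild-type high-fat arrays and 7.46% against normal-diet arrays. For S100a8 the margin was small, with 51.4 in the lowest transgenic array and 50.5 in the highest wild-type array. The rest of the neutrophil list (Mpo, Elane, Camp, Ltf, Ngp, Cxcr2 and Csf3r) overlapped between transgenic and wild-type high-fat livers. Kupffer cell and macrophage markers (10 of 11 above the limit) had sums of 5586.2 to 14914.1, 4384.9 to 11172.6 and 3268.9 to 5889.9 in the same order of groups. Lymphocyte markers (2 of 11 above the limit) had 490.6 to 765.0, 379.6 to 675.3 and 360.0 to 538.8, with overlap between groups. The 10 macrophage genes had median log2 differences of 0.46 over wild-type high-fat livers, 0.59 for diet and 1.04 over normal-diet livers. In the last comparison 8 of 10 were higher at an unadjusted limma p under 0.05 (9.96% of all genes). There 1 passed, Cd5l (2.02 ± 0.46, limma adjusted p = 0.0456), where 1.4% of all genes passed as higher, and 0 passed in the other comparisons. Hepatocyte markers (7 of 7 above the limit) summed to 155328.7 to 215247.2 in transgenic, 150944.2 to 167056.0 in wild-type high-fat and 135247.1 to 157363.2 in normal-diet livers, and endothelial ones (10 of 10) to 4697.5 to 5889.4, 3913.1 to 4689.9 and 4419.2 to 5573.7. The high hepatocyte sums were those of transgenic arrays 3 and 4, at 215247.2 and 210296.7. Transgenic arrays 1 and 2, at 155328.7 and 160064.1, lay within the wild-type high-fat range. Stellate cell markers (8 of 10) and erythroid markers (4 of 7) overlapped between all groups, and 0 of 6 bile duct markers were above the limit. The part of these cells in the values of Ung, Rrm1 and the replication fork genes was not tested.

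By the likeness rule, the mean standardised profile of the 8 genes over the 11 arrays was most like those of Tspan9, Ppif, Snx10, Slc37a1 and Rab38, with Pearson r of 0.945, 0.923, 0.919, 0.918 and 0.914. The profile of Ung alone was most like those of Ralgps2, F10, Il17rb, Tbrg1 and Rrbp1 among genes outside the 9, with r of 0.961, 0.949, 0.942, 0.941 and 0.934. Among the 8 themselves, Ung had r = 0.913 with Pcna, 0.756 with Rrm1 and 0.601 with Lig1, and -0.037 with Rrm2 and -0.636 with Tk1. These correlations describe the same 11 arrays, which share group differences, and carry no test.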

How the data were processed

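Liver RNA of 11 mice was measured on oligonucleotide arrays after poly-dT priming, per the labels' protocols. The deposited values are linear intensity (MAS5 signal) with 1 value per probe set and array, made with MAS5 (version not given) per the submitters' processing notes. They came without detection calls, and 1386 values under 1 were set to 1 before log2. Gene symbols came from the platform annotation: 20380 probe sets had 1 symbol, 691 several, 1555 none, and 64 were controls. The platform annotation gives no genome build.

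Probe sets of 1 symbol above the lowest 40% of mean log2 signal (about 53.0) were kept and the brightest stood for a gene, leaving 7924. One linear model over all 11 arrays was fitted in limma 3.58.1 (R 4.3.3; lmFit, then eBayes with an intensity trend). Tests were two-sided, and calls took a Benjamini-Hochberg adjusted p below 0.05. A second fit took all 22626 probe sets that are not controls. Errors are moderated standard errors. The script was checked on simulated data. P-values measure the spread between these arrays, each labelled as a separate mouse, and the number of arrays limits the precision.

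The genes, pathway lists and markers were chosen with earlier results of these data known. All 9 genes were named. From each pathway list the genes past the threshold in any comparison were named, filled up to 3 by smallest p between transgenic and wild-type high-fat livers, and likeness took the 5 genes of highest r. Other settings tried were fits without single arrays, a replicate block, a fit of the compared groups alone, weights per array, a robust or trend-free eBayes, every probe set in place of the brightest, a 60% filter or none, log2(signal + 32) and quantile normalization.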

Additional observations from a re-analysis of the deposited data

How the results depend on the processing

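Of 513 alternative values of the 8 genes, 39 lost a call, 0 gained one and 17 changed sign, none of them past the threshold in either fit. For Ung and Rrm1 between transgenic and wild-type high-fat livers the sign was the same in 21 of 21 alternatives each (log2 1.59 to 2.21 and 0.73 to 0.90) and 8 of 21 kept the call, with limma adjusted p of 0.0139 to 0.296 and 0.0247 to 0.259. For Rrm1 over normal-diet livers 21 of 21 did (limma adjusted p of 0.00116 to 0.0196), and for Ung over normal-diet livers 8 of 21. The 60% filter left out 5 of the 8 genes, Ung and Rrm1 among them.

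For transgenic over wild-type high-fat livers 29 genes were called, and 12 without the filter on dim probe sets, 48 with all probe sets above it, 0 without the trend, 58 with array weights, 8 with only these groups and 4 without transgenic arrays 3 and 4 (0 to 64 with single arrays left out). The 2 calls among the 8 genes became 0 without the filter, with the 60% filter, without the trend, with only these groups, with the replicate block and without transgenic arrays 3 and 4 (0 to 2 with single arrays left out). For diet, 0 genes became 1 with array weights, 2 with the replicate block and 2 without transgenic arrays 3 and 4 (0 to 2 with single arrays left out), and 0 of the 8 were called throughout (0 to 0). For transgenic over normal-diet livers 165 became 81 without the trend, 104 with only these groups and 23 without transgenic arrays 3 and 4 (36 to 199 with single arrays left out). The 2 calls there became 1 without the trend, without the filter, with quantile normalization, with the replicate block and without transgenic arrays 3 and 4, and 0 with the 60% filter (1 to 2 with single arrays left out).

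Signs turned as follows. Rrm2 over wild-type high-fat livers was -0.042 with quantile normalization and -0.45 to 0.43 with single arrays left out (-0.080 without wild-type high-fat array 1). Fen1 was -0.13 to 0.70 there (-0.040 and -0.055 without transgenic arrays 2 and 4), and Dut was 0.12 without transgenic arrays 3 and 4. For diet with single arrays left out, Fen1 was -0.57 to 2.02 (-0.38 and -0.056 without normal-diet array 2 and wild-type high-fat array 2), Tk1 -0.25 to 0.68 and Lig1 -0.12 to 0.27 (-0.024 without wild-type high-fat array 2). Over normal-diet livers Tk1 was 0.071 without transgenic arrays 3 and 4 and -0.89 to 0.051 with single arrays left out, and Fen1 was -0.30 to 2.29 (-0.11 without normal-diet array 2). The cause was not tested.

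Same-numbered arrays of transgenic and wild-type high-fat mice had deviations that correlated at 0.084 to 0.292, over 0.1 in 3 of 4 pairs, and those of the other comparisons at -0.072 to 0.111, so the numbers were not taken as pairs. With the replicate block both calls there were lost: the limma adjusted p was 0.0552 for Ung and 0.0786 for Rrm1 in that comparison, with 31 genes called. Over normal-diet livers it was 0.0573 for Ung and 0.00799 for Rrm1, with 139 called.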

Other observations

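Among the 16 probe sets of the 9 genes, normal-diet array 1 was the highest array at 5, and normal-diet array 3 and wild-type high-fat array 4 were the lowest at 5 each. In normal-diet livers the highest signal was 36.3 times the lowest at the brighter Fen1 probe set, and 2.96 to 3.16 times at the 3 Rrm2 probe sets, against 1.19 times at the brighter Rrm1 probe set. Dixon's gap test flagged no value among 32 groups of 4 arrays at these probe sets, and groups of 3 were not tested. With 4 values the test needs a gap that spans most of the range, so it cannot show that no array stood apart. At the brightest Rrm2 probe set transgenic array 2, with 358.6 against 57.7, 115.0 and 113.4 in the other transgenic arrays, was not flagged.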
